A study of Mus musculus with 10 samples.

Results

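Mouse embryonic stem cells that had received a small interfering RNA (siRNA) against Socs3 were set directly against cells that had received one against Sox17. Of the 10 arrays in the series, 4 carried this comparison. Their titles put 2 in the siSocs3 group and 2 in the siSox17 group. All 18194 genes measured by a probe set with a single gene symbol were compared, each by the probe set with the highest mean over the series.

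All groups shared the same cells and the same regimen. NG4 mouse embryonic stem cells were plated onto siRNA so that knockdown began at seeding, and were then kept in retinoic acid for 48 h. In the sample labels, the siRNA was the only stated difference between the groups. Differences in culture or array batch could not be checked. No group here was left undifferentiated. The 2 arrays labelled siNonTarget, from cells given a non-targeting siRNA, are the study's control and their values stand beside those of the 2 groups. The siFbxw7 and siRnf31 arrays, 2 each, entered the model for its estimate of the spread between replicates. The labels name 1 line, describe no clones and leave unstated whether replicate arrays represent separate cultures. The p-values measure only the spread between these arrays, which may be technical.

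Socs3 encodes a feedback inhibitor of cytokine signalling. Leukaemia inhibitory factor (LIF) activates the kinase JAK and the transcription factor STAT3 in mouse embryonic stem cells, STAT3 induces Socs3, and the Socs3 protein binds the receptor complex and dampens it. The same LIF and STAT3 route sustains the naive pluripotent state. Sox17 encodes an HMG-box transcription factor of definitive and extraembryonic endoderm. Retinoic acid binds the RAR and RXR nuclear receptors, induces HOX genes and its own degrading enzymes, and moves these cells out of pluripotency towards neural and endodermal fates. The direct comparison asks how cells given the 2 siRNAs differed at the same time under the same regimen.

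Neither targeted transcript was lower in the group labelled with its siRNA by a margin that passed the test. Socs3 had log2 intensities of 10.66 and 10.11 on the siSocs3 arrays, against 10.09 and 9.88 on the siSox17 arrays and 9.62 and 10.28 on the siNonTarget arrays. Both siSocs3 arrays thus lay above both siSox17 arrays. The difference, siSocs3 minus siSox17, was 0.40 ± 0.24 on the log2 scale, with an adjusted p of 0.436 in limma. Here and below, ± is the SE from limma, with 2 arrays a group and the spread estimated over all 10 arrays. The other 2 Socs3 probe sets gave 0.42 ± 0.19 and 0.36 ± 0.19. Sox17 had log2 intensities of 7.46 and 7.55 on the siSocs3 arrays, against 6.32 and 7.50 on the siSox17 arrays and 6.37 and 7.39 on the siNonTarget arrays. One siSox17 array was low and the other was level with the siSocs3 arrays, and the siNonTarget arrays were spread as widely. The Sox17 difference was 0.59 ± 0.53 (adjusted p = 0.625), while a second probe set for the gene gave 0.37 ± 0.38. The transcript levels therefore did not check either label, and every direction given below is between libraries labelled siSocs3 and libraries labelled siSox17.

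**Figure D1:**
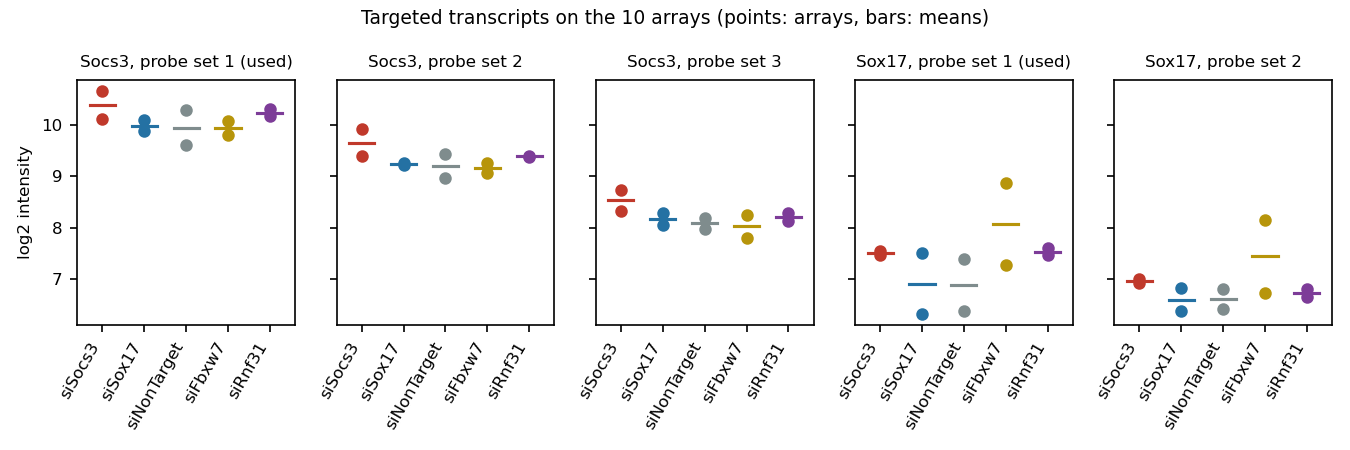
Log2 intensity of the 3 Socs3 and 2 Sox17 probe sets on each of the 10 arrays, 1 point per array and a bar for each mean, by siRNA group as labelled. On the probe sets used, Socs3 sat at 10.66 and 10.11 in the siSocs3 group, above the 10.09 and 9.88 of the siSox17 group, and Sox17 in the siSox17 group spanned 6.32 to 7.50.

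The 4 arrays were of similar quality. Median intensities of all 10 arrays lay between 46.39 and 47.95 on the linear scale, and the 3′ to 5′ log2 difference of the actin control probe sets was 0.29 and 0.28 on the siSocs3 arrays and 0.26 and 0.25 on the siSox17 arrays. It was higher on siNonTarget replicate 1 (0.50) and siFbxw7 replicate 1 (0.60). Across genes, replicates correlated at 0.997 within each of the siSocs3 and siSox17 groups, although siSox17 replicate 2 correlated best with siFbxw7 replicate 2 (0.998). A difference of at least 2-fold between replicates was seen for 13 genes in the siSocs3 group and 40 in the siSox17 group. Replicates of the other groups were further apart, with 220 such genes for siNonTarget, 208 for siFbxw7 and 105 for siRnf31. These groups also entered the estimate of the spread.

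The cells carried the markers of embryonic stem cells on all 4 arrays. The summed linear intensity of the 7 embryonic stem cell markers was 27711 and 27646 on the siSocs3 arrays, against 21449 and 22999 on the siSox17 arrays. The 8 fibroblast markers summed to 1143 and 1292 on the siSocs3 arrays, against 1229 and 1087 on the siSox17 arrays. The 4 neural markers summed to 435 and 558 on the siSocs3 arrays, against 761 and 1045 on the siSox17 arrays. The 5 extraembryonic endoderm markers summed to 947 and 1042 on the siSocs3 arrays, against 956 and 1214 on the siSox17 arrays, and the 4 trophoblast markers to 388 and 531, against 533 and 435. Of the 4 blood markers 3 were measured, at 47.9 and 68.3 on the siSocs3 arrays, against 43 and 51.5 on the siSox17 arrays. The fibroblast, endoderm, trophoblast and blood sums overlapped between the groups. The stem cell sums did not overlap and were higher on the siSocs3 arrays, and the neural sums did not overlap and were lower there. Among all genes, 28.6% were separated upwards in this way and 25.6% downwards. Of the 7 stem cell markers only Sall4 passed in limma, while Pou5f1 differed by 0.15, Lin28a by 0.05 and Cdh1 by −0.11. Of the 4 neural markers 0 passed, and the smallest adjusted p was 0.0663, for Ncam1. In bulk RNA, fewer cells of a type and less RNA per cell cannot be told apart, and this holds for every difference below.

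Expression differed between the groups at 474 of 18194 genes (2.61%, adjusted p under 0.05 in limma). In the arrays labelled siSocs3, 298 genes were higher (1.64%) and 176 were lower (0.967%). At an unadjusted p under 0.05 the number was 3163. The higher genes had the larger differences. Their median was 0.95 on the log2 scale and their range 0.44 to 3.88, with 139 genes at 2-fold or more, 51 over 4-fold and 15 over 8-fold. The lower genes had a median of −0.76 and a range of −2.36 to −0.48, with 36 genes at 2-fold or more, 1 over 4-fold and 0 over 8-fold. The median difference over all genes was 0.01.

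**Figure D2:**
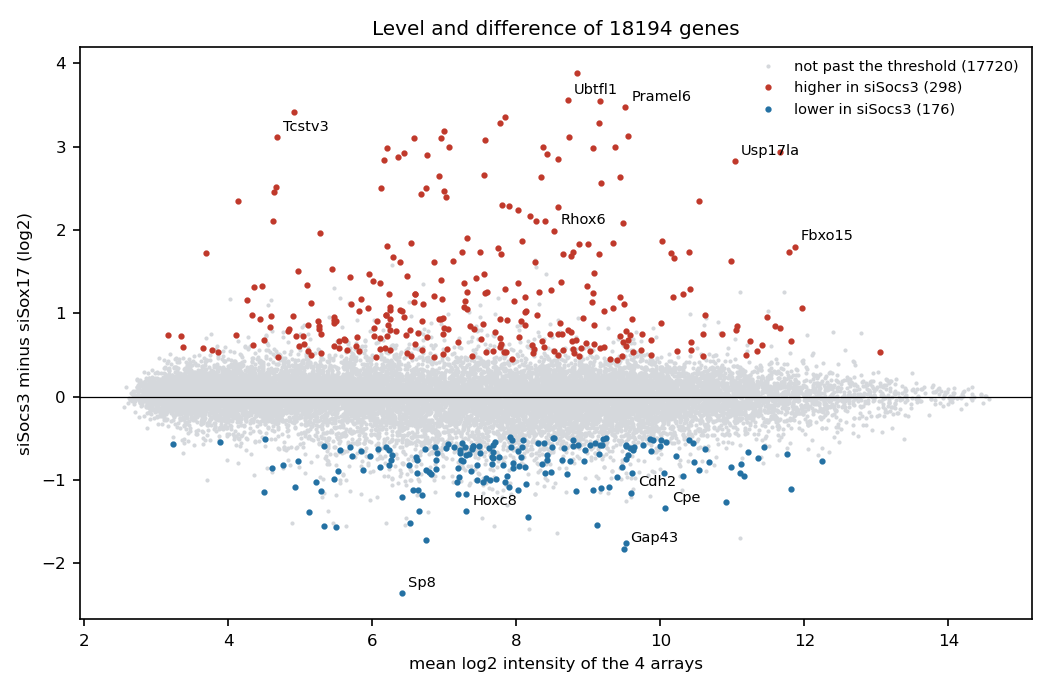
Difference in log2 intensity, siSocs3 minus siSox17, against the mean log2 intensity, 1 point per gene for 18194 genes, with the 298 higher and 176 lower genes coloured. Differences reached 3.88 upwards and −2.36 downwards.

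The 2 siSocs3 arrays were the highest of all 10 arrays at 292 of the 298 higher genes (98%), against 11.3% of all genes. The 2 siSox17 arrays were the lowest of all 10 at 53 of these genes (17.8%), against 3.65% of all genes. Among the 176 lower genes, the siSocs3 arrays were the lowest 2 of 10 at 161 (91.5%, against 10.4% of all genes) and the siSox17 arrays the highest 2 at 60 (34.1%, against 3.69% of all genes). These genes were selected for a difference between the groups, so the orders are a description. In the same model, 1684 genes (9.26%) passed between siSocs3 and siNonTarget, and 1 gene (0.0055%) between siSox17 and siNonTarget. All 3 comparisons share arrays.

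The number of calls rested on all 4 arrays. Omitting siSocs3 replicate 1 left 77 and omitting siSocs3 replicate 2 left 227, while omitting siSox17 replicate 1 left 140 and omitting siSox17 replicate 2 left 104. A total of 74 genes (71 higher, 3 lower) were called in each of these fits. The sign of the difference did not turn for any of the 474 genes when 1 of the 4 arrays was left out.

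**Figure D3:**
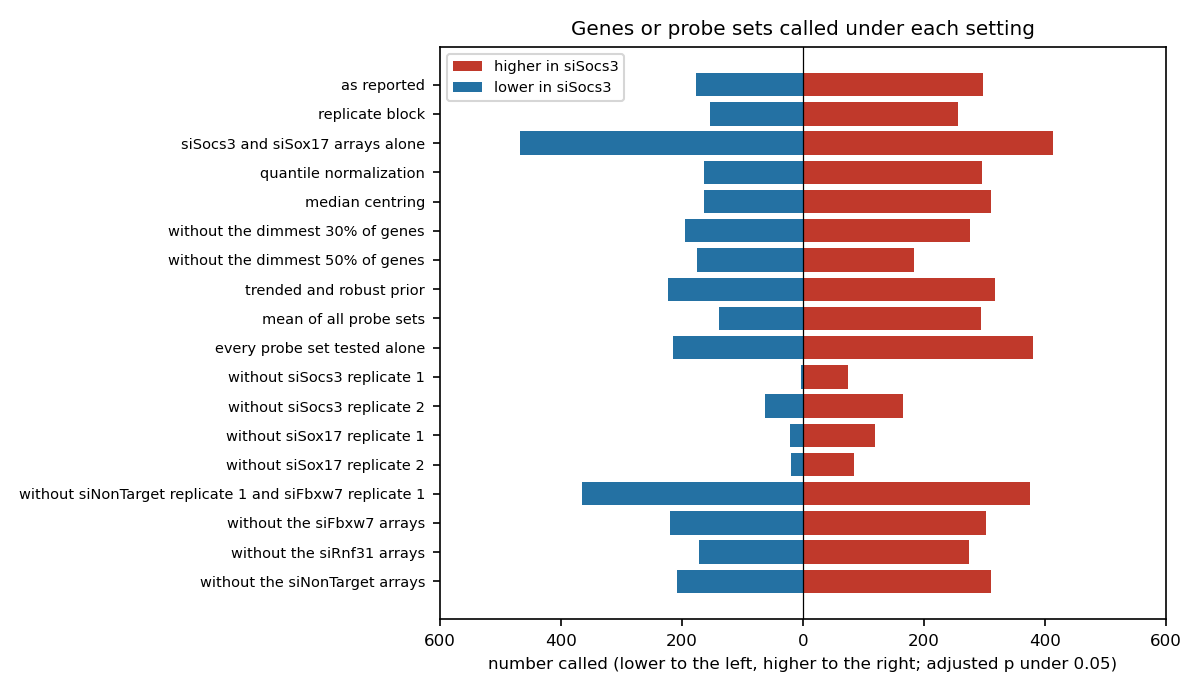
Number of genes (probe sets, where each was tested alone) higher and lower in the arrays labelled siSocs3 under each setting of the processing, with higher to the right and lower to the left. The count as reported is 298 higher and 176 lower, leaving out 1 of the 4 arrays gave 77 to 227 genes in all, and the 4 arrays analysed alone gave 881.

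Genes of the 2-cell embryo were among the largest rises. A small share of cells in mouse embryonic stem cell cultures passes through a state in which genes of the 2-cell embryo are transcribed, activated by the double homeobox factor encoded by the Dux locus. The list of 2-cell-stage genes and the lists below were chosen with earlier results of these data known, so their shares are descriptions. Of 19 genes on the 2-cell-stage list, 10 were measured. In the arrays labelled siSocs3, 9 of the 10 rose (90%, against 1.64% of all genes) and 0 fell (against 0.967%). The median difference over the 10 genes was 2.87 on the log2 scale. Leaving out any 1 of the 4 arrays kept 7 or 8 of these 9 calls.

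Ubtfl1, an HMG-box gene of the preimplantation embryo, had the largest rise among the genes named here. Its log2 intensities were 10.78 and 10.22 on the siSocs3 arrays, against 7.31 and 6.57 on the siSox17 arrays and 7.39 and 8.43 on the siNonTarget arrays. The siSocs3 arrays stood well above both other groups, and the difference from siSox17 was 3.56 ± 0.36 (adjusted p = 0.00197). Tcstv3, a member of the 2-cell-stage variable group, had log2 intensities of 6.39 and 6.07 on the siSocs3 arrays, against 3.24 and 3.0 on the siSox17 arrays and 3.40 and 3.68 on the siNonTarget arrays. The siSox17 level was so low that 2.93% of genes were dimmer, and the fitted difference was 3.11 ± 0.21 (adjusted p = 0.000702). Its relative Tcstv1, for which 6.60% of genes were dimmer on the siSox17 arrays, had a fitted difference of 2.52 ± 0.24 (adjusted p = 0.00175). No detection calls were used here, so levels this low cannot be told from background and the size of both rises is a lower bound. Usp17la, a deubiquitinating enzyme, was far brighter, at 12.50 and 12.39 on the siSocs3 arrays, against 9.85 and 9.38 on the siSox17 arrays and 10.15 and 10.69 on the siNonTarget arrays. Its difference was 2.83 ± 0.26 (adjusted p = 0.00158).

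Zfp352, a zinc-finger gene of the early embryo, had log2 intensities of 10.03 and 9.71 on the siSocs3 arrays, against 7.09 and 6.67 on the siSox17 arrays and 7.17 and 7.94 on the siNonTarget arrays. The siSocs3 and siSox17 arrays were separated by more than 2 log2 units, and the difference was 2.99 ± 0.31 (adjusted p = 0.00202). Trim43a, a tripartite-motif gene, had 10.20 and 9.57 on the siSocs3 arrays, against 7.29 and 6.65 on the siSox17 arrays and 6.05 and 6.91 on the siNonTarget arrays (difference 2.91 ± 0.32, adjusted p = 0.00272). Arg2, the mitochondrial arginase, had 9.37 and 9.19 on the siSocs3 arrays, against 7.32 and 6.91 on the siSox17 arrays and 7.73 and 7.83 on the siNonTarget arrays (difference 2.17 ± 0.23, adjusted p = 0.00217). All 3 genes kept their call without each of the 4 arrays. Sp110, a nuclear body gene, rose by 3.08 ± 0.40 (adjusted p = 0.00527) on the probe set used, and its probe sets ranged from 0.39 to 3.08. The call for Sp110 was lost without siSocs3 replicate 1 and without siSox17 replicate 2.

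Duxf3, which encodes the double homeobox activator itself, was a modest member of the group. Its log2 intensities were 5.91 and 5.64 on the siSocs3 arrays, against 5.25 and 5.07 on the siSox17 arrays and 5.28 and 5.46 on the siNonTarget arrays. The difference of 0.61 ± 0.13 passed (adjusted p = 0.0426) and was below those of the genes above. It was lost without any 1 of the 4 arrays (adjusted p = 0.0618 to 0.334), and Duxf3 is described for its role although its values were seen first. Eif1a, a translation initiation factor gene and the only measured member of the list that did not pass, differed by 0.20 ± 0.16 (adjusted p = 0.586).

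Members of the Pramel family were also among the 15 largest rises. Genes of the Pramel family encode leucine-rich-repeat proteins, and Pramel7 is known to support the naive state in mouse embryonic stem cells. Pramel6 had log2 intensities of 11.35 and 11.15 on the siSocs3 arrays, against 8.35 and 7.21 on the siSox17 arrays and 7.68 and 8.86 on the siNonTarget arrays. Its difference was 3.48 ± 0.50 (adjusted p = 0.00874), with the siSox17 replicates more than 1 log2 unit apart. Pramel7 had 10.32 and 10.26 on the siSocs3 arrays, against 7.50 and 6.84 on the siSox17 arrays and 6.61 and 7.77 on the siNonTarget arrays. It rose by 3.12 ± 0.40 (adjusted p = 0.00485), and Pramel18 rose by 2.997 ± 0.35 (adjusted p = 0.00319). On their other probe sets the difference was 1.54 for Pramel7 and 2.75 for Pramel6. Of 7 family members measured, these 3 rose (42.9%, against 1.64% of all genes), 0 fell and 4 did not pass. The family median was 0.60. Pramel12 differed by 0.58 ± 0.20 (adjusted p = 0.172). The count of 3 was 1, Pramel18, without siSocs3 replicate 1 or without siSox17 replicate 2.

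The rest of the 15 largest rises were genes of varied function. Bex6, of the brain-expressed X-linked family, had log2 intensities of 7.30 and 5.94 on the siSocs3 arrays, against 3.20 and 3.20 on the siSox17 arrays and 3.52 and 3.75 on the siNonTarget arrays. On the siSox17 arrays 3.94% of genes were dimmer, so the fitted difference of 3.42 ± 0.35 (adjusted p = 0.00188) and its rank are likewise a lower bound. Crxos, a homeobox gene, had 11.25 and 10.34 on the siSocs3 arrays, against 8.06 and 6.97 on the siSox17 arrays and 6.86 and 7.82 on the siNonTarget arrays (difference 3.28 ± 0.45, adjusted p = 0.00701, with 2.19 on its other probe set). Ccl3, a chemokine, had 8.43 and 7.84 on the siSocs3 arrays, against 5.50 and 4.56 on the siSox17 arrays and 5.60 and 5.97 on the siNonTarget arrays (difference 3.11 ± 0.35, adjusted p = 0.00303). In each of these genes the lower siSocs3 array stood above the higher siSox17 array by more than 2 log2 units. Spz1, a spermatogenic leucine-zipper gene, rose by 3.10 ± 0.35, and Speer4cos, Fam90a1a and Nat8f2, an N-acetyltransferase-family gene, rose by 2.998, 2.98 and 2.93. The probe sets of Nat8f2 disagreed, the smallest difference being 0.11. Of the 15 largest rises, the calls for Pramel6, Pramel7, Crxos, Sp110 and Nat8f2 were lost without siSocs3 replicate 1 or siSox17 replicate 2, and that for Fam90a1a was lost without 3 of the 4 arrays.

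**Figure D4:**
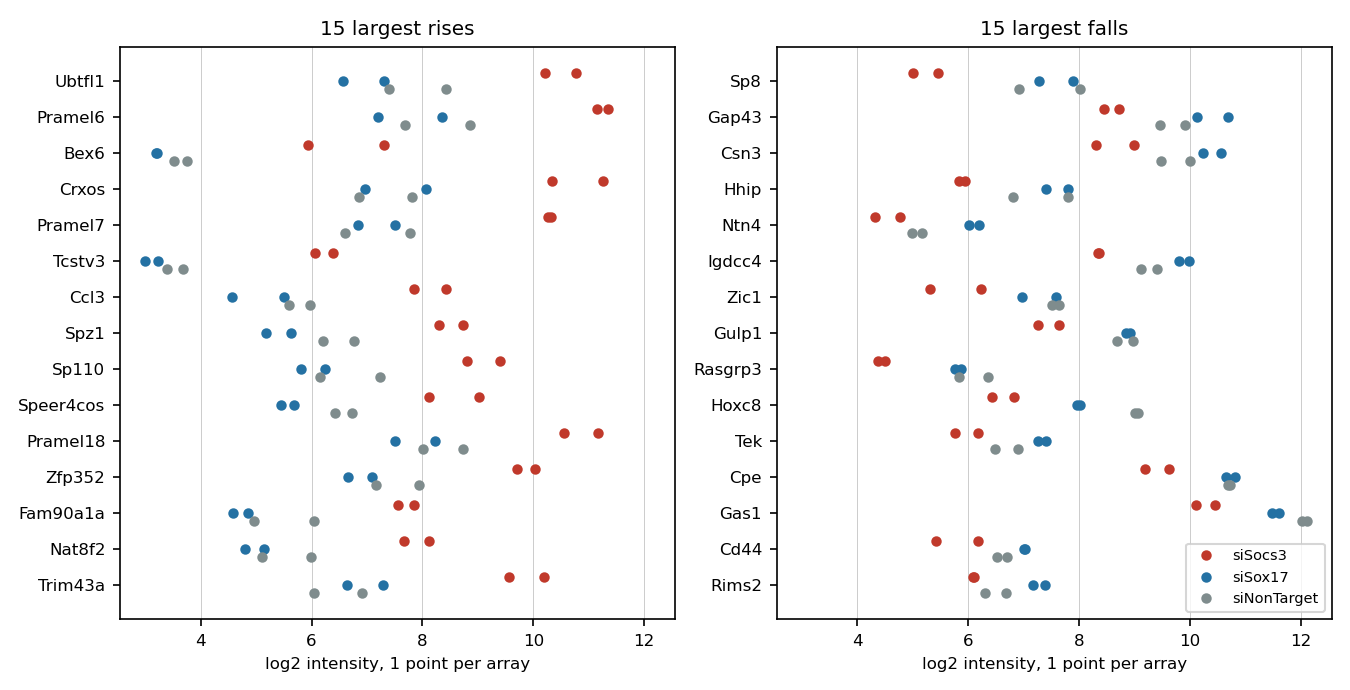
Log2 intensity on each siSocs3, siSox17 and siNonTarget array for the 15 largest rises and the 15 largest falls among named genes. In the rises both siSocs3 points lie above both siSox17 points, from Ubtfl1 (difference 3.56) to Trim43a (2.91), and in the falls both lie below, from Sp8 (−2.36) to Rims2 (−1.18).

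Genes that rose included neighbours on the chromosome. In the order of tested genes in the RefSeq annotation (GRCm38.p6), 40 of the 298 higher genes stood in 17 runs of adjacent higher genes. Of the 175 placed lower genes, 5 stood in 2 runs. How many runs sets of these sizes would form by position alone was not tested. The longest run held 7 genes, AF067063, D13Ertd608e, Tcstv1, Gm20767, AF067061, BC147527 and Tcstv3, with differences of 2.46 to 3.55. Its unfamiliar members were picked out after their values were seen. Some other runs were of related genes, such as Rhox5, Rhox6 and Rhox9, the pair Pramel7 and Pramel6, and the pair Tex19.2 and Tex19.1. Others paired genes of unlike name, such as Ddr2 with Uap1, Slc27a2 with Hdc, Mybpc1 with Spic and Fbxo34 with Atg14. In families of similar copies, probes made for one member can also bind transcripts of another, so their members are uncertain as separate measurements.

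The promoters of 4 of the 15 largest rises are shown, from genes of the 2-cell and Pramel groups described above, so that their upstream sequences can be compared. Each is the 250 bases before the annotated start in RefSeq (GRCm38.p6), read 5′ to 3′ on the gene's strand, with every CG dinucleotide in capitals. They lie at chr9:18404168-18404417 (plus strand, Ubtfl1), chr4:90218570-90218819 (plus, Zfp352), chr2:87506315-87506564 (plus, Pramel6) and chr2:87492419-87492668 (minus, Pramel7).
Ubtfl1: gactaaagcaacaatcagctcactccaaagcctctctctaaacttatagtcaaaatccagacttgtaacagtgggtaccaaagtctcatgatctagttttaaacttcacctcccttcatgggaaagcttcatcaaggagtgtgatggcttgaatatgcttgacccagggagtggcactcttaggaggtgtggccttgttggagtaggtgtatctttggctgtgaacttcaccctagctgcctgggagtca
Zfp352: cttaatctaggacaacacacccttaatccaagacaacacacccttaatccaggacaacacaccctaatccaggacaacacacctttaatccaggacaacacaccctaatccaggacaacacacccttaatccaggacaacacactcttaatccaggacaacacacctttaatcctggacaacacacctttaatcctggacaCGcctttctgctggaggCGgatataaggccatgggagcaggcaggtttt
Pramel6: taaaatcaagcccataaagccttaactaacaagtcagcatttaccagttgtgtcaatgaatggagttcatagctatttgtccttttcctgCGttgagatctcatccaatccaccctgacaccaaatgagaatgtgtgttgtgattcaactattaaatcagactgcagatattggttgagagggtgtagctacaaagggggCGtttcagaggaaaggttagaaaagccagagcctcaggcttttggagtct
Pramel7: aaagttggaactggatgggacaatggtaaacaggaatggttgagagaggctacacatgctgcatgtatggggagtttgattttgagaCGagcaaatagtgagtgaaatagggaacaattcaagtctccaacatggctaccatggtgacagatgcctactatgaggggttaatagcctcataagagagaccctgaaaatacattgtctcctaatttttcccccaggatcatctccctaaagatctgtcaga
Ubtfl1 holds 0 CG dinucleotides in this window, Pramel7 holds 1, and Zfp352 and Pramel6 hold 2 each. The Zfp352 window contains 8 copies of the 11 bases gacaacacacc, a repeat picked out after it was seen, and no other of the 18010 windows of tested genes contains it on either strand (1 of 18010, 0.00555%). Windows were on hand for 12 of the 15 largest rises, whose 15 windows held 0 to 4 CG dinucleotides with a median of 2. They were on hand for 10 of the 15 largest falls, whose 13 windows held 1 to 39 with a median of 10. Among the falls, Igdcc4 held 39 and Tek held 2. Over all called genes the contrast was smaller, with a median of 9 in 282 windows of higher genes and 14 in 199 windows of lower genes, and the median over all 18010 windows of tested genes was 12. A window was matched for 77.2% of the higher genes, 79.5% of the lower genes, 66.7% of the 15 falls and 79% of all genes, each under the 80% needed, so the comparison of the sets is void and these counts are descriptions.

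Pluripotency genes rose in part. The naive circuit is a set of transcription factors that holds mouse embryonic stem cells in a state like the inner cell mass, and retinoic acid shuts it down. Of 19 measured naive genes, 2 rose (10.5%, against 1.64% of all genes), 0 fell and 17 did not pass. The median difference was 0.43 against 0.01 over all genes. Both siSocs3 arrays lay above both siSox17 arrays for 12 of the 19, against 28.6% of all genes, and below them for 1, against 25.6%. Fbxo15, an F-box gene used as a marker of pluripotent cells, had log2 intensities of 12.97 and 12.56 on the siSocs3 arrays, against 11.09 and 10.84 on the siSox17 arrays and 11.07 and 11.33 on the siNonTarget arrays. It rose by 1.80 ± 0.16 (adjusted p = 0.00155) and kept its call without each of the 4 arrays. Prdm14, a repressor of differentiation genes, had 7.96 and 7.67 on the siSocs3 arrays, against 6.86 and 7.15 on the siSox17 arrays and 6.56 and 6.52 on the siNonTarget arrays. It rose by 0.81 ± 0.14 (adjusted p = 0.0238) and lost its call in all but 1 of the leave-one-out fits.

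The core naive factors did not pass. Nanog had log2 intensities of 12.87 and 12.71 on the siSocs3 arrays, against 11.96 and 12.08 on the siSox17 arrays and 11.26 and 11.24 on the siNonTarget arrays. The groups did not overlap, and the difference of 0.77 ± 0.22 had an adjusted p of 0.12. Dppa3, a maternal factor also called Stella, had 9.09 and 8.64 on the siSocs3 arrays, against 7.71 and 7.79 on the siSox17 arrays, and its 1.12 ± 0.25 missed the threshold (adjusted p = 0.0532). Klf4, a STAT3 target of the naive circuit, had 11.12 and 10.68 on the siSocs3 arrays, against 10.34 and 10.61 on the siSox17 arrays and 9.37 and 9.16 on the siNonTarget arrays. Its siSox17 values lay much nearer to the siSocs3 than to the siNonTarget values, and its difference was 0.43 ± 0.35 (adjusted p = 0.584). The orphan receptor gene Esrrb differed by 0.65 ± 0.23 (adjusted p = 0.189) and Zfp42, also called Rex1, by 0.40 ± 0.17 (adjusted p = 0.277).

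Among 18 measured genes of general pluripotency, 4 rose (22.2%, against 1.64% of all genes) and 0 fell, with a median difference of 0.27. Zfp296, a zinc-finger gene of pluripotent cells, had log2 intensities of 9.67 and 9.54 on the siSocs3 arrays, against 7.94 and 7.89 on the siSox17 arrays and 7.46 and 7.86 on the siNonTarget arrays. The siSocs3 arrays were apart from both other groups, and the rise of 1.69 ± 0.17 (adjusted p = 0.00188) held without each of the 4 arrays. Sall4, a zinc-finger partner of the core circuit, had 12.13 and 12.17 on the siSocs3 arrays, against 11.48 and 11.48 on the siSox17 arrays and 11.75 and 11.91 on the siNonTarget arrays, a rise of 0.67 ± 0.10 (adjusted p = 0.0115). Eras, an embryonic Ras gene, rose by 0.74 ± 0.15 and Dppa2, an activator of the Dux locus, by 0.54 ± 0.12. Sall4, Eras and Dppa2 lost their calls without any 1 of the 4 arrays, which left a count of 1. Pou5f1, the core factor OCT4, had 12.53 and 12.63 on the siSocs3 arrays, against 12.27 and 12.59 on the siSox17 arrays and 11.84 and 11.10 on the siNonTarget arrays. Its groups overlapped and its difference was 0.15 ± 0.32 (adjusted p = 0.864). Sox2, its partner, differed by 0.30 ± 0.14 (adjusted p = 0.308).

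Germline genes and trophectoderm genes also held members that rose and 0 that fell. Of 21 measured germline genes 7 rose (33.3%, against 1.64% of all genes), with a list median of 0.18. Tex19.1, a gene of germ cells and pluripotent cells that acts on retrotransposons, had log2 intensities of 10.17 and 9.89 on the siSocs3 arrays, against 8.93 and 8.75 on the siSox17 arrays and 8.55 and 8.35 on the siNonTarget arrays. It rose by 1.19 ± 0.13 (adjusted p = 0.00272). Rhox6, a homeobox gene of an X-linked cluster, had 9.60 and 9.44 on the siSocs3 arrays, against 7.67 and 7.39 on the siSox17 arrays and 7.21 and 8.02 on the siNonTarget arrays, a rise of 1.99 ± 0.23 (adjusted p = 0.00319). Its cluster neighbours Rhox9 and Rhox5 rose by 1.62 ± 0.26 and 0.96 ± 0.17. Tdrd12, a Tudor-domain gene of the piRNA pathway, rose by 0.88, Stk31, another Tudor-domain gene, by 0.90, and Tex101, a germ-cell surface gene, by 0.73. Omitting siSocs3 replicate 1 left 1 of the 7 germline calls and omitting siSocs3 replicate 2 left 3, while omitting siSox17 replicate 1 or 2 left 4 and 2.

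Of 22 measured trophectoderm genes 3 rose (13.6%, against 1.64% of all genes), and 2 of them were Rhox6 and Rhox9. Plac1, an X-linked placental gene, was the third, with log2 intensities of 8.15 and 8.29 on the siSocs3 arrays, against 6.001 and 5.65 on the siSox17 arrays and 5.65 and 6.23 on the siNonTarget arrays. It rose by 2.40 ± 0.27 (adjusted p = 0.00284), also without each of the 4 arrays. Cdx2, the defining trophectoderm factor, had 7.65 and 8.29 on the siSocs3 arrays, against 7.92 and 7.76 on the siSox17 arrays and 6.08 and 6.96 on the siNonTarget arrays. Its groups overlapped, and the difference was 0.13 ± 0.41 (adjusted p = 0.917). The trophectoderm count was 1 without siSocs3 replicate 1.

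Sp8, a zinc-finger factor of forebrain and limb patterning, had the largest fall. Its log2 intensities were 5.00 and 5.46 on the siSocs3 arrays, against 7.28 and 7.89 on the siSox17 arrays and 8.01 and 6.93 on the siNonTarget arrays. Both siSocs3 arrays lay below every siSox17 and siNonTarget array, and the difference was −2.36 ± 0.34 (adjusted p = 0.00923). Hhip, an inhibitor that binds hedgehog ligands, had 5.93 and 5.84 on the siSocs3 arrays, against 7.39 and 7.81 on the siSox17 arrays and 7.80 and 6.80 on the siNonTarget arrays (difference −1.71 ± 0.28, adjusted p = 0.0172). Gas1, a hedgehog co-receptor, had 10.11 and 10.45 on the siSocs3 arrays, against 11.60 and 11.48 on the siSox17 arrays and 12.11 and 12.02 on the siNonTarget arrays (difference −1.26 ± 0.23, adjusted p = 0.0275). For Hhip and Gas1 no leave-one-out fit kept the call, and the Gas1 probe sets ranged from −1.52 to 0.01.

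Among the 15 falls named here, Cpe and Gulp1 held without each of the 4 arrays. Cpe, carboxypeptidase E of neuropeptide processing, had log2 intensities of 9.18 and 9.62 on the siSocs3 arrays, against 10.82 and 10.66 on the siSox17 arrays and 10.72 and 10.68 on the siNonTarget arrays. The siSox17 and siNonTarget arrays were alike, and the difference from siSox17 was −1.33 ± 0.14 (adjusted p = 0.00223), with −0.30 on its other probe set. Gulp1, an engulfment adaptor, had 7.26 and 7.63 on the siSocs3 arrays, against 8.85 and 8.92 on the siSox17 arrays and 8.97 and 8.69 on the siNonTarget arrays. Its difference was −1.44 ± 0.16 (adjusted p = 0.00304), and its probe sets reached −0.13 at the least. Igdcc4, an immunoglobulin-superfamily receptor gene, had 8.36 and 8.34 on the siSocs3 arrays, against 9.99 and 9.80 on the siSox17 arrays and 9.41 and 9.11 on the siNonTarget arrays. The siSox17 arrays were above the siNonTarget arrays, and the difference was −1.54 ± 0.18 (adjusted p = 0.00356).

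The other large falls were smaller or less stable. Csn3, kappa-casein, fell by 1.75 ± 0.25 on the log2 scale. The calls for Csn3, Sp8 and Gap43, described with the neuronal genes, were lost without siSocs3 replicate 1 or siSox17 replicate 2, and that for Igdcc4 without siSocs3 replicate 1. Ntn4, a netrin, had −1.56 and, with −0.31, a smaller difference on its other probe set. Rasgrp3, a Ras exchange factor, fell by 1.39, Tek, the angiopoietin receptor, fell by 1.36, Cd44, the hyaluronan receptor, fell by 1.20, and Rims2, a presynaptic active-zone gene, fell by 1.18. Rasgrp3, Cd44 and Rims2 each had another probe set near 0, at 0.05, 0.07 and 0.06. The remaining probe sets gave −0.99 and −0.13 for Cd44, and −1.12, −0.90 and 0.006 for Rims2. Ntn4, Rasgrp3, Tek and Rims2 were called in 0 of the 4 leave-one-out fits and Cd44 in 1. Like Igdcc4, the genes Csn3, Gap43, Ntn4, Tek, Cd44 and Rims2 had both siNonTarget values below both siSox17 values. Tek, for example, had 5.77 and 6.17 on the siSocs3 arrays, against 7.41 and 7.26 on the siSox17 arrays and 6.89 and 6.48 on the siNonTarget arrays.

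HOX genes had mostly negative differences, 27 of 33, and 3 of them passed in either direction. They are classical targets of retinoic acid and lie in clusters that open in order. Of the 33 measured, 2 fell (6.06%, against 0.967% of all genes), 1 rose (3.03%, against 1.64%) and 30 did not pass, and the median difference was −0.47. Both siSocs3 arrays lay below both siSox17 arrays for 24 of the 33, against 25.6% of all genes, and above them for 4. Hoxc8 had log2 intensities of 6.42 and 6.82 on the siSocs3 arrays, against 8.02 and 7.96 on the siSox17 arrays and 9.07 and 9.004 on the siNonTarget arrays. The 3 groups formed 3 steps, and the difference between siSocs3 and siSox17 was −1.37 ± 0.29 (adjusted p = 0.0461). Hoxa5 had 10.48 and 10.63 on the siSocs3 arrays, against 11.33 and 11.46 on the siSox17 arrays and 11.45 and 11.06 on the siNonTarget arrays (difference −0.84 ± 0.13, adjusted p = 0.016). Hoxa7 was the one that rose, by 0.45 ± 0.09 (adjusted p = 0.0391). Hoxb6 had 6.62 and 6.98 on the siSocs3 arrays, against 7.87 and 8.64 on the siSox17 arrays and 10.41 and 9.07 on the siNonTarget arrays, and its −1.45 ± 0.52 did not pass (adjusted p = 0.195). Hoxd1 differed by −1.54 ± 0.41 (adjusted p = 0.093). Without any 1 of the 4 arrays 0 HOX genes were called, and without siNonTarget replicate 1 and siFbxw7 replicate 1, the arrays with the highest actin 3′ to 5′ differences, 5 were lower.

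Of 27 measured genes of the retinoic acid response and of retinoid turnover, 1 rose (3.70%, against 1.64% of all genes) and 0 fell. The median difference was −0.29. Estimates were above 0 for 10 of them, and both siSocs3 arrays lay below both siSox17 arrays for 13 and above them for 9, against 25.6% and 28.6% of all genes. The highest estimate was that of Ret, a receptor kinase gene, at 0.78 ± 0.40, which did not pass (adjusted p = 0.367). Crabp2, a cytoplasmic retinoic acid carrier, had log2 intensities of 10.03 and 10.49 on the siSocs3 arrays, against 11.63 and 12.28 on the siSox17 arrays and 12.99 and 12.27 on the siNonTarget arrays. The siSocs3 arrays lay below all 4 others, and the difference was −1.70 ± 0.38 (adjusted p = 0.0532). Meis2, a HOX cofactor, differed by −1.25 ± 0.29 (adjusted p = 0.0632), and Cyp26b1, which degrades retinoic acid, by −0.99 ± 0.24 (adjusted p = 0.0717). Rarb, the receptor gene that retinoic acid induces, had 8.78 and 8.83 on the siSocs3 arrays, against 9.25 and 9.20 on the siSox17 arrays and 9.87 and 10.08 on the siNonTarget arrays, a difference of −0.42 ± 0.13 (adjusted p = 0.138). The member that passed was Rxra, a partner receptor gene, which rose by 0.71 ± 0.12 (adjusted p = 0.0211). Its other probe sets gave 0.86 and, at a mean log2 intensity of 3.91, −0.08. Without siNonTarget replicate 1 and siFbxw7 replicate 1, 4 members of the list were lower. The Rxra call was kept without siSocs3 replicate 2 and lost without each of the other 3 arrays.

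**Figure D5:**
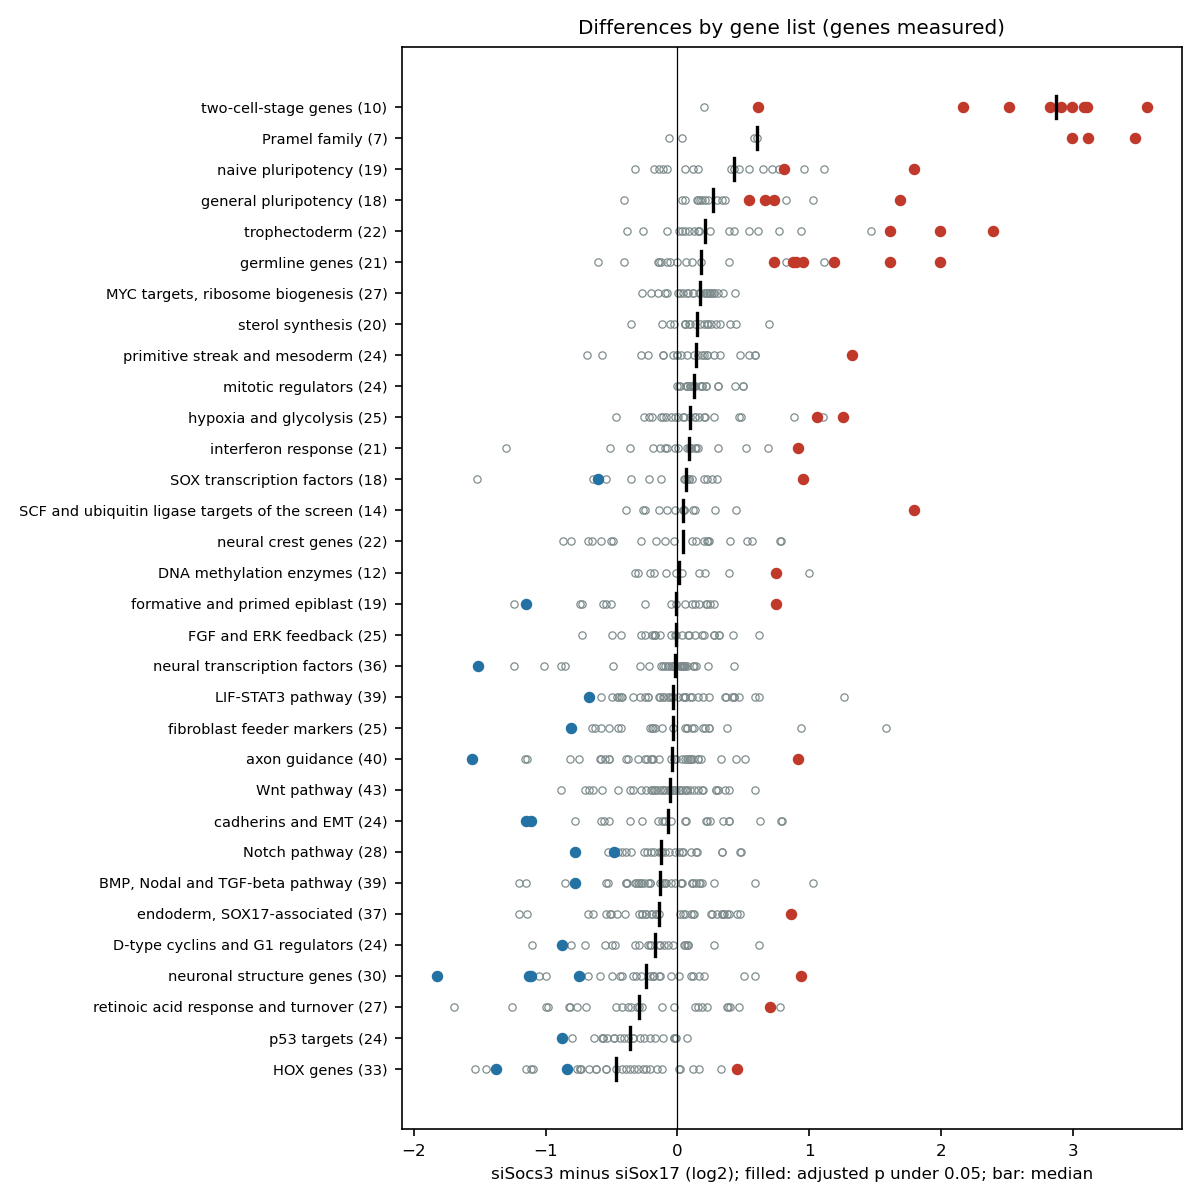
Log2 difference, siSocs3 minus siSox17, for each measured member of the gene lists, 1 point per gene, with members that passed coloured red where higher and blue where lower. The 2-cell-stage list has 9 of 10 measured members higher and a median of 2.87. The HOX list has a median of −0.47 with 2 members lower and 1 higher. Over all genes, 1.64% were higher and 0.967% lower.

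Neuronal structure genes held 4 of the falls. Of 30 measured structure genes, 4 fell (13.3%, against 0.967% of all genes) and 1 rose (3.33%, against 1.64%), with a median of −0.24. Gap43, a growth-cone protein, had log2 intensities of 8.45 and 8.72 on the siSocs3 arrays, against 10.12 and 10.69 on the siSox17 arrays and 9.91 and 9.46 on the siNonTarget arrays. Its difference was −1.82 ± 0.25 (adjusted p = 0.0071). Vim, the intermediate filament of neural progenitors and mesenchyme, had 11.09 and 11.41 on the siSocs3 arrays, against 12.38 and 12.35 on the siSox17 arrays and 11.66 and 12.05 on the siNonTarget arrays. The siSocs3 arrays were the lowest of the 3 groups for Gap43 and for Vim, whose difference was −1.11 ± 0.19 (adjusted p = 0.0194). Rtn1, a reticulon, fell by 1.13 ± 0.19 on the log2 scale, Dpysl3, a growth-cone cytoskeleton gene, fell by 0.75 ± 0.15, and Nefm, a neurofilament subunit, rose by 0.94 ± 0.20, a call lost without any 1 of the 4 arrays. Of the 4 falls, 3 held when siSocs3 replicate 2 was omitted, 1 when siSox17 replicate 1 was omitted, and 0 when siSocs3 replicate 1 or siSox17 replicate 2 was omitted.

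Of 36 measured neural transcription factors, 1 fell (2.78%, against 0.967% of all genes) and 0 rose, with a median of −0.02. Zic1 was the one that fell. It had log2 intensities of 5.30 and 6.23 on the siSocs3 arrays, against 7.58 and 6.98 on the siSox17 arrays and 7.52 and 7.63 on the siNonTarget arrays (difference −1.51 ± 0.31, adjusted p = 0.0406), and its call was kept only without siSocs3 replicate 2. Sox1, the early neural plate factor, had 5.26 and 5.61 on the siSocs3 arrays, against 6.22 and 7.69 on the siSox17 arrays and 8.74 and 7.29 on the siNonTarget arrays. The siSox17 arrays were far apart, and the difference of −1.52 ± 0.58 did not pass (adjusted p = 0.218). Pax6 differed by −0.85 ± 0.32 (adjusted p = 0.209). The summed neural markers given above were lower on the siSocs3 arrays as well, and their part in these differences was not tested.

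After adjustment, the pathways of the targeted genes were called at about the share of all genes, 2.61%. Of 39 measured genes of the LIF and STAT3 pathway, 0 rose and 1 fell (2.56%), with a median of −0.03. At an unadjusted p under 0.05 in limma, 6 of the 39 were higher and 6 lower. Among all genes, 8.66% were higher and 8.73% lower at that threshold. Cebpd, a STAT3-induced transcription factor gene, had log2 intensities of 7.04 and 7.27 on the siSocs3 arrays, against 7.83 and 7.83 on the siSox17 arrays and 7.08 and 7.19 on the siNonTarget arrays. The siSocs3 and siNonTarget arrays were alike, and the difference from siSox17 was −0.67 ± 0.12 (adjusted p = 0.0229), with 0.09 on its other probe set. Sgk1, a kinase gene, had 11.92 and 11.55 on the siSocs3 arrays, against 10.79 and 10.16 on the siSox17 arrays and 9.40 and 10.19 on the siNonTarget arrays, and its 1.26 ± 0.30 did not pass (adjusted p = 0.0683). Stat3 itself had 9.16 and 9.50 on the siSocs3 arrays, against 9.50 and 9.37 on the siSox17 arrays, a difference of −0.11 ± 0.20 (adjusted p = 0.84). Bcl3, another STAT3 target, differed by 0.36 ± 0.12 (adjusted p = 0.15). The call for Cebpd was kept only without siSocs3 replicate 2.

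Of 37 measured endoderm genes, 1 rose (2.70%, near the share of all genes) and 0 fell, with a median of −0.14. At an unadjusted p under 0.05 in limma, 3 of the 37 were higher and 4 lower. Foxa3, a forkhead factor of endoderm, had log2 intensities of 5.41 and 5.68 on the siSocs3 arrays, against 4.65 and 4.71 on the siSox17 arrays and 5.62 and 5.41 on the siNonTarget arrays. Here the siSox17 arrays were the group apart, below both others, and the difference was 0.86 ± 0.12 (adjusted p = 0.00783). Its call was kept only without siSocs3 replicate 1. Gata6, a master factor of primitive endoderm, had 8.85 and 8.94 on the siSocs3 arrays, against 8.92 and 9.42 on the siSox17 arrays, with overlap and a difference of −0.27 ± 0.22 (adjusted p = 0.578). Gata4 differed by 0.38 ± 0.29 (adjusted p = 0.559), and Sox7, the nearest relative of Sox17, by −0.64 ± 0.42 (adjusted p = 0.483).

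Targets of p53 had differences below 0 with 1 exception, and 1 of them passed. The tumour suppressor p53 arrests the cell cycle and triggers cell death after DNA damage. Of 24 measured targets 1 fell (4.17%, against 0.967% of all genes) and 0 rose. The median difference was −0.36, and 23 of the 24 estimates were below 0. Both siSocs3 arrays lay below both siSox17 arrays for 16 and above them for 0, against 25.6% and 28.6% of all genes. Cdkn1a, the cyclin-dependent kinase inhibitor p21, had log2 intensities of 9.93 and 10.25 on the siSocs3 arrays, against 11.16 and 10.78 on the siSox17 arrays and 10.14 and 10.54 on the siNonTarget arrays. The siNonTarget values reached from the siSocs3 range up to just under the siSox17 values, and the difference was −0.87 ± 0.18 (adjusted p = 0.0438). It was lost without any 1 of the 4 arrays.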

How the data were processed

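The deposited values were RMA intensities on a linear scale from Affymetrix mouse arrays of 45101 probe sets, per the labels and the submitters' processing notes. RMA corrects background, normalizes between arrays and summarizes probes, with version and settings not given in the sources used here. Amplification with the NuGEN Ovation system began from 5 ng of total RNA, per the labels' protocols. Precision is limited by the number of arrays. The deposited intensity values were used as log2, with no further normalization, pseudocount or filter. Of the probe sets, 34958 had 1 gene symbol and 932 several, and 9211 had none; the brightest probe set on average stood for a gene (18194 genes, 9012 of them with more than 1 probe set).

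Limma 3.58.1 in R 4.3.3 fitted 1 mean for each of 5 groups of 2 arrays (5 residual degrees of freedom, lmFit and eBayes, two-sided, Benjamini-Hochberg over all genes, threshold 0.05). With 2 arrays against 2, an exact permutation test of a single gene could not go below p = 0.333. The procedure was tested on simulated data with independent normal noise on every array. Such data cannot show how the test behaves where arrays of different groups deviate together. Named genes were the targets, the 15 passing genes with the largest difference in each direction and no overlap between groups (predicted-locus and clone names skipped, 45 of 474), and members of the gene lists, the passing ones up to 6 in each direction. The members and lists were chosen with earlier results of these data known. Alternatives were the replicate number as a block, the 4 arrays alone, quantile and median scaling, filters on dim genes, another variance prior, other uses of probe sets, a 2-fold minimum and the omission of arrays. Same-numbered arrays were not taken as pairs: the deviations of the siSocs3 and siSox17 replicates from their group means correlated at 0.04 across genes, and over all 10 pairs of groups the correlation ran from −0.26 to 0.42 (siNonTarget with siFbxw7). Promoter sequences and gene order came from RefSeq (GRCm38.p6).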

Additional observations from a re-analysis of the deposited data

Results flagged for a closer look

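Probe sets outside the gene comparison also carried a signal, and were picked out because they were not used above. Of 932 probe sets annotated to several genes, 40 were higher in the arrays labelled siSocs3 than in those labelled siSox17 (4.29%, adjusted p under 0.05 in limma over all probe sets) and 2 were lower (0.215%). Their median difference was 1.41 on the log2 scale, the largest was 3.92, and 12 passed 4-fold. Of 9211 probe sets with no gene symbol in the annotation used, 51 were higher (0.554%) and 14 lower (0.152%). The higher ones had a median difference of 1.47 and a largest of 3.37, and 18 passed 4-fold. Among the 34958 probe sets of a single gene, 0.95% were higher and 0.509% lower. Which transcripts these probe sets measured was not tested.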

How the results depend on the processing

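Against 474 called genes (298 higher, 176 lower in the arrays labelled siSocs3), leaving out 1 of the 4 arrays gave 77 to 227 (74 to 165 higher, 3 to 62 lower), a fit with fewer samples. The 4 arrays alone gave 881 (413 higher, 468 lower). Omitting siNonTarget replicate 1 and siFbxw7 replicate 1, chosen after seeing the data, gave 740 (376 higher, 364 lower). Without the dimmest 50% of genes, 9097 genes were tested, and 184 were higher and 175 lower (3.95% called in all). A 2-fold minimum left 175 (139 higher, 36 lower). For the 881, the 740 and the 184 the cause was not tested. Quantile or median scaling, the filter on the dimmest 30%, the trended prior, the mean of probe sets, probe sets tested singly and the omission of the siFbxw7, siRnf31 or siNonTarget arrays moved the count of all changed genes by less than 1.5 times. The replicate block gave 409 genes (256 higher, 153 lower), 369 of them among the 474, and 10 of the 68 named genes that passed lost their call. Apart from the omission of 1 of the 4 arrays, Hoxc8 and Zic1 each passed in 8 of 12 settings and Ntn4 in 5 of 11. Of 68 named genes that passed, 19 passed in every setting run for them (the filters on dim genes removed some of the 68), and 0 changed sign in any such setting. Neither Socs3 nor Sox17 passed in any setting.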

Other observations

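In the arrays labelled siSocs3, 2 of 25 measured genes of low oxygen and glycolysis rose (8%, against 1.64% of all genes). So did 1 of 24 genes of the primitive streak and mesoderm (4.17%) and 1 of 21 of interferon response (4.76%). The list medians were 0.10, 0.14 and 0.09. Ankrd37, a hypoxia-induced ankyrin gene, had log2 intensities of 8.22 and 8.21 on the siSocs3 arrays, against 6.997 and 6.93 on the siSox17 arrays and 7.30 and 7.63 on the siNonTarget arrays, a rise of 1.25 ± 0.20 (adjusted p = 0.0172). P4ha2, a collagen prolyl hydroxylase, rose by 1.06 ± 0.16 (adjusted p = 0.0132). The other 23 of the 25 measured genes of low oxygen and glycolysis did not pass. The call for Ankrd37 was lost without any 1 of the 4 arrays, and that for P4ha2 held only without siSocs3 replicate 2. Gsc, the homeobox gene of the organizer, had 5.21 and 5.06 on the siSocs3 arrays, against 3.76 and 3.86 on the siSox17 arrays and 4.19 and 4.42 on the siNonTarget arrays. It rose by 1.32 ± 0.15 (adjusted p = 0.00284), also without each of the 4 arrays, and was the only one of 24 primitive streak and mesoderm genes to pass. Gsc was dim on the siSox17 arrays, where 12.4% of genes were dimmer, so the size of its rise is uncertain. Oas1a, an interferon-induced oligoadenylate synthetase, rose by 0.92 ± 0.12 (adjusted p = 0.00585), alone among 21 interferon response genes. Its call was lost without siSocs3 replicate 1 and without siSox17 replicate 2.

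Adhesion and signalling lists held 1 or 2 calls each, where 1.64% of all genes were higher and 0.967% lower. Cdh2, N-cadherin, had 8.75 and 9.29 on the siSocs3 arrays, against 10.28 and 10.07 on the siSox17 arrays and 10.73 and 10.71 on the siNonTarget arrays, a fall of 1.15 ± 0.23 on the log2 scale (adjusted p = 0.0389), and with Vim it made 2 of 24 cadherin and mesenchymal genes that fell. In the Notch list of 28 genes, Id2, an inhibitor of helix-loop-helix factors that is also the 1 lower gene of 39 in the BMP, Nodal and TGF-beta list, fell by 0.78 and Hes6 fell by 0.48. Among 18 SOX genes Sox15 rose by 0.95 and Sox6 fell by 0.60. Of 40 axon guidance genes Dcc, a netrin receptor, rose by 0.91, with 2.34 and 2.28 on its other 2 probe sets, and Ntn4 fell. Of 19 formative and primed epiblast genes, 1 rose and 1 fell, Dnmt3b by 0.75 and Cdh2. Fstl1 was the 1 of 25 fibroblast genes that fell, by 0.81. One of 12 DNA methylation genes rose, 1 of 24 G1 regulators fell, and Fbxo15 was the 1 of 14 ubiquitin ligase genes that rose. The calls for Hes6, Sox15, Sox6 and Dnmt3b were lost without any 1 of the 4 arrays, and those for Id2, Cdh2, Dcc and Fstl1 held only without siSocs3 replicate 2. Id2 passed in 5 of the 12 other settings.

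Some lists held 0 calls in limma after adjustment. At an unadjusted p under 0.05, where 8.66% of all genes were higher and 8.73% lower, 3 of 22 neural crest genes were higher and 4 lower, 4 of 25 FGF and ERK genes were higher and 2 lower, 5 of 43 Wnt genes were higher and 2 lower, and 2 of 20 sterol synthesis genes were higher and 1 lower. The 24 mitotic regulators had a median difference of 0.12 with both siSocs3 arrays above both siSox17 arrays for 18 and below for 0, against 28.6% and 25.6% of all genes. The 27 ribosome biogenesis genes had a median of 0.17, with 17 above and 2 below. At an unadjusted p under 0.05, 5 mitotic regulators were higher and 0 lower, and 4 ribosome biogenesis genes were higher and 1 lower.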
